A study of Mus musculus with 4 samples.

Results

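Von Willebrand factor and the genes that start, restrain and clear a fibrin clot were measured in the semilunar valve leaflets of newborn mice that lacked Cxcr7. The members were 9 genes taken by symbol: Vwf, Thbd, Procr, Tfpi, F3, Plat, Plau, Plaur and Serpine2. Of these, 8 had at least 1 probe set annotated to them alone, 13 probe sets in all among 45037 non-control probe sets, and Serpine2 was not analysed here. A filter on dim probe sets kept 11 of the 13, which covered 7 genes, and both Plau probe sets were below it.

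Vessel and valve endothelium keeps blood fluid through a set of surface and secreted proteins. Tissue factor starts coagulation outside the vessel, tissue factor pathway inhibitor restrains that step, and thrombomodulin with the endothelial protein C receptor turns thrombin into an activator of the anticoagulant protein C. Von Willebrand factor is made by endothelial cells and megakaryocytes, is stored in endothelial Weibel-Palade bodies, tethers platelets and carries coagulation factor VIII. The plasminogen activators tPA and uPA, with the uPA receptor, generate plasmin, which degrades fibrin and also acts on extracellular matrix.

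The arrays compared Cxcr7-/- neonates, whose homozygous loss removes an atypical receptor for CXCL12 now named Ackr3, with wildtype littermates that the titles call Control. Each genotype had 2 pools, each pool held aortic and pulmonary valve leaflets of 3 neonates, and each pool gave 1 array. Per the labels a Cxcr7-/- neonate gave 4 to 6 leaflets, since a mutant valve had 2 or 3, while each control neonate gave 6. The labels do not give the allele, the strain or an exact age, and the pools are called biological replicates without a litter being named. In whole leaflets, fewer cells of a type and less RNA per cell cannot be told apart. All 22 endothelial markers and all 12 markers of valve interstitial cells and fibroblasts were above the filter. So were all 14 macrophage, all 14 cardiomyocyte and all 6 hepatocyte markers, and 11260 of 18193 named genes. Passing the filter therefore does not single out the labelled tissue.

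The pools differed in signal of hepatocyte, cardiomyocyte and smooth muscle markers. Summed signal of 6 hepatocyte markers was 1295 and 59922 in Cxcr7-/- pools and 89498 and 11721 in control pools. Cardiomyocyte markers (14 of 14) and smooth muscle markers (7 of 7 kept) had negative log2 fold changes, and the summed signal of the cardiomyocyte markers was 93032 and 136291 in Cxcr7-/- pools and 172491 and 242133 in control pools. The cardiomyocyte and smooth muscle differences lay along genotype and cannot be told apart from it. The origin of these marker signals and their part in the member values were not tested. Signal of Ackr3 itself was 28.3 and 328 in Cxcr7-/- pools and 4936 and 5698 in control pools, the direction of the labels. Of 22518 probe sets kept, 0 passed an adjusted p of 0.05 in limma (0%), and 10.1% had an unadjusted p under 0.05. No member passed the adjusted threshold, so the member values below describe these 4 pools and are not called changes. With all 4 arrays, 2 of the 11 kept member probe sets had an unadjusted p under 0.05, Vwf lower and Procr higher, beside 6.18% of all kept probe sets lower and 3.94% higher at the same threshold.

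**Figure D1:**
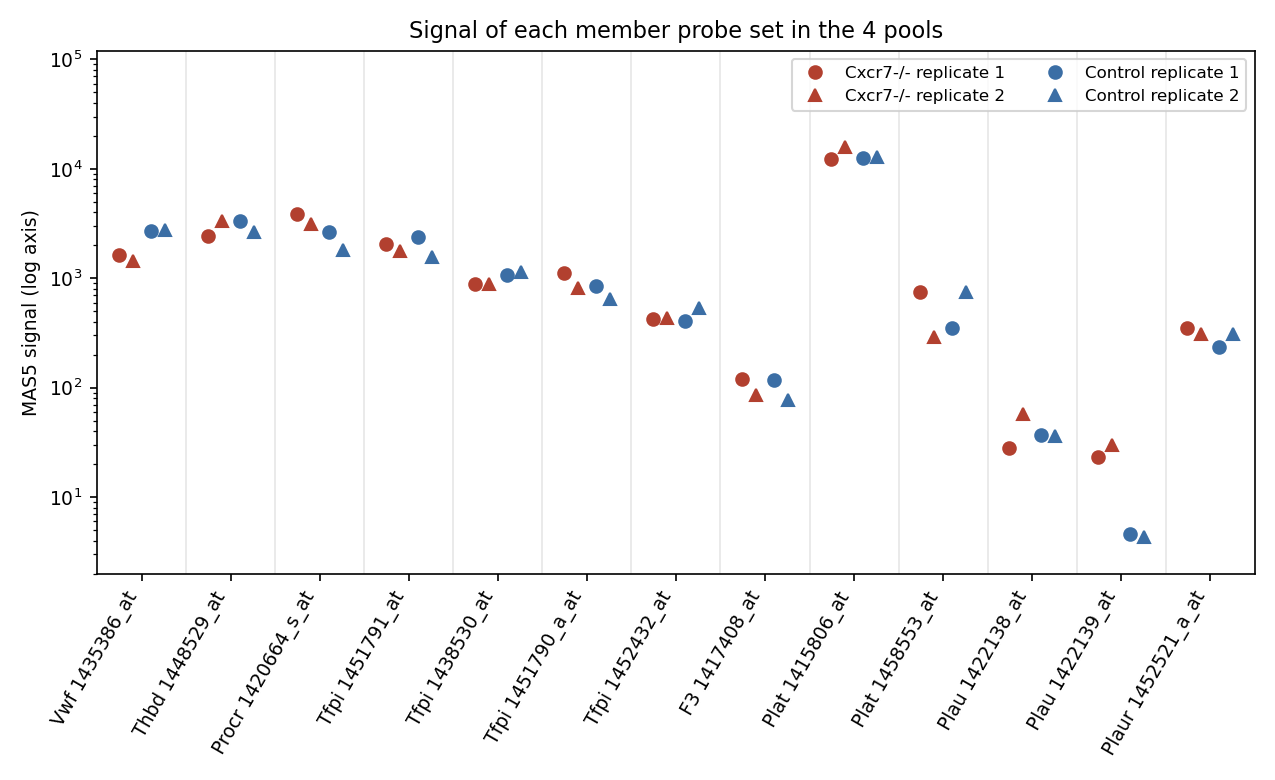
MAS5 signal (log axis) of the 13 member probe sets in each of the 4 pools, with Cxcr7-/- pools in red left of control pools in blue, and circles for replicate 1 and triangles for replicate 2. Both Cxcr7-/- pools lie below both control pools for Vwf (1635 and 1434 against 2727 and 2733) and above them for Procr (3880 and 3139 against 2628 and 1803), while for Thbd and F3 the pools of the genotypes overlap.

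Vwf signal was 1635 and 1434 in Cxcr7-/- pools, against 2727 and 2733 in control pools (probe set 1435386_at). Both mutant pools were lower than both control pools, and the gap between genotypes was wider than the spread within either: the higher pool exceeded the lower one 1.14-fold among mutants and 1.002-fold among controls. The mutant mean was 56.2% of the control mean, and the log2 fold change was -0.83 ± 0.24 (SE; 2 and 2 pools), a fold of 0.564 with a 95% interval of 0.382 to 0.833. The adjusted p from limma was 0.411. With each array left out in turn the log2 fold change stayed between -0.92 and -0.73.

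The protein C receptor gene Procr had the opposite direction. Its signal was 3880 and 3139 in Cxcr7-/- pools, against 2628 and 1803 in control pools (1420664_s_at). The pools did not overlap, but the control pools differed 1.46-fold from each other, nearly as much as the genotype means did. The log2 fold change was 0.68 ± 0.28 (SE; 2 and 2 pools), a fold of 1.60 with a 95% interval of 1.02 to 2.49, at an adjusted p of 0.477 in limma. Control replicate 2, the lowest of the 4 arrays, set much of this size: the log2 fold change was 0.41 without it and 0.94 without control replicate 1.

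Thrombomodulin (Thbd), which binds thrombin beside the protein C receptor on the same endothelial surface, showed no separation. It read 2426 and 3305 in Cxcr7-/- pools, against 3344 and 2654 in control pools. The ranges overlapped, and the difference was -0.07 ± 0.27 on the log2 scale, with a 95% interval from -0.69 to 0.55, so that a change of up to about that size either way was not detectable with these arrays. The sign of this difference turned under median centring of the arrays, to 0.065.

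Tissue factor pathway inhibitor (Tfpi), which blocks factor Xa and the complex of tissue factor with factor VIIa, was read by 4 probe sets that did not point one way. The brightest, 1451791_at, gave 2039 and 1786 in Cxcr7-/- pools, against 2405 and 1572 in control pools, with overlap and a log2 fold change of -0.03 ± 0.29. The only one of the 4 with separate pools was 1438530_at, with 882 and 887 in Cxcr7-/- pools, against 1063 and 1151 in control pools, at -0.32 ± 0.26. Probe set 1451790_a_at read 1122 and 820 in Cxcr7-/- pools, against 857 and 646 in control pools, at 0.36 ± 0.30, which was 0.14 without Cxcr7-/- replicate 1 and 0.16 without control replicate 2.

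The remaining Tfpi probe set, 1452432_at, read 425 and 431 in Cxcr7-/- pools, against 408 and 538 in control pools, at -0.13 ± 0.31. Across the gene the log2 fold changes ran from -0.32 to 0.36, a span of 0.67, and all 4 intervals included 0. Median centring of the arrays turned the signs of 1451791_at (0.11) and 1452432_at (0.012). Probe sets 1451791_at and 1451790_a_at are annotated to the same source sequence.

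Tissue factor (F3), the cellular starter of coagulation, was dim. Its signal was 120 and 85.9 in Cxcr7-/- pools, against 118 and 77.1 in control pools (1417408_at), close to the level of 87.4 at which the filter acts. Both genotypes held a higher and a lower pool, and the log2 fold change was 0.07 ± 0.42 (95% interval -0.91 to 1.05). A 2-fold difference in either direction therefore lay near or within the interval.

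The tissue plasminogen activator gene Plat gave strong signal in every pool. Probe set 1415806_at read 12383 and 15801 in Cxcr7-/- pools, against 12458 and 12746 in control pools. Cxcr7-/- replicate 1 was just below both control pools and replicate 2 above both, and the log2 fold change was 0.15 ± 0.22, with a 95% interval from -0.35 to 0.65 that excludes a 2-fold difference in either direction. The dimmer probe set 1458553_at read 753 and 288 in Cxcr7-/- pools, against 349 and 752 in control pools. There the pools of each genotype differed more than 2-fold from each other, and the log2 fold change of -0.13 ± 0.52 carries little information.

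The urokinase gene Plau was at the low end of the signal range. Probe set 1422138_at read 28.2 and 57.0 in Cxcr7-/- pools, against 37.0 and 36.5 in control pools, and 1422139_at read 23.3 and 30.2 in Cxcr7-/- pools, against 4.56 and 4.29 in control pools. The second had separate pools, but all 4 of its values are close to or below the 22 signal units added before taking logs, and neither was fitted. The receptor gene Plaur, which holds urokinase at the cell surface, read 349 and 308 in Cxcr7-/- pools, against 235 and 307 in control pools (1452521_a_at). Its pools were separate by about 1 signal unit, and the log2 fold change was 0.27 ± 0.33, with an adjusted p of 0.810 in limma, while the fold change was 0.090 on that scale without control replicate 1.

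**Figure D2:**
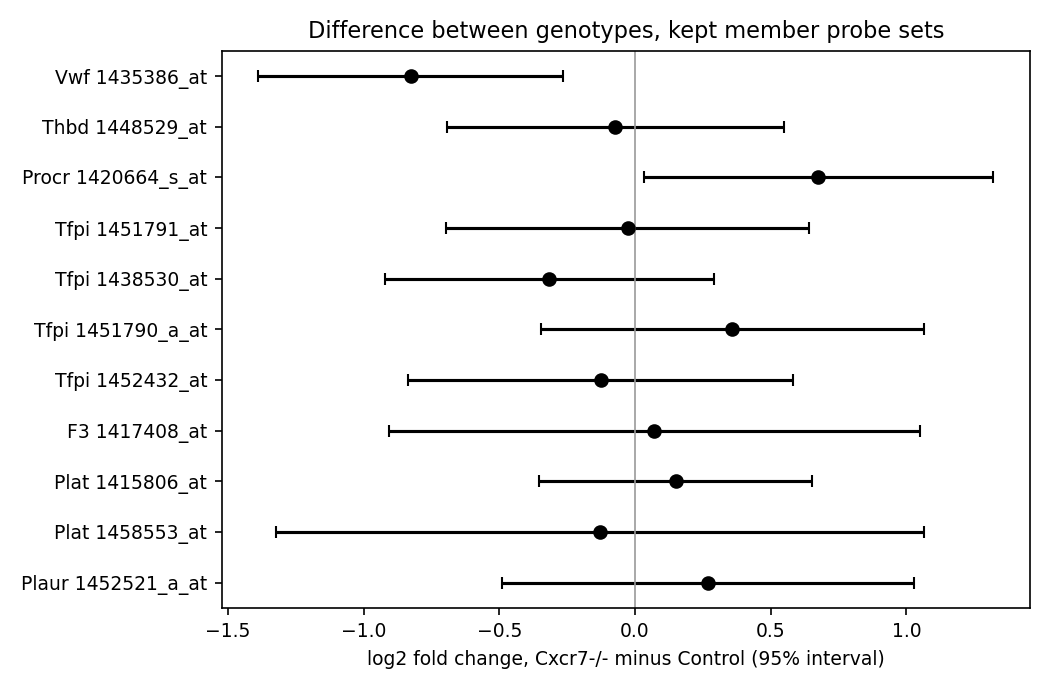
Log2 fold change, Cxcr7-/- minus Control, with its 95% interval from limma (horizontal axis) for the 11 kept member probe sets. The intervals of Vwf (-1.39 to -0.26) and Procr (0.03 to 1.32) exclude 0 before adjustment, and those of the other 9 probe sets include it.

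Over the 11 kept member probe sets, 5 log2 fold changes were positive and 6 negative, with a median of -0.03, beside a median of -0.02 over all kept probe sets. The split was 9 positive and 2 negative after median centring, which moved the median over all kept probe sets to 0.12, and Vwf was negative and Procr positive in both. Both Cxcr7-/- pools were on the same side of both control pools for 4 of the 11, and the same was true of 42.4% of all kept probe sets. They lay above for 2 member probe sets, beside 20.1% of all, and below for 2, beside 22.3%. The 95% interval excluded a 2-fold difference in either direction for 5 of the 11. The members thus had no common direction.

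The 2 members that stood farthest apart, Vwf and Procr, are both expressed by endothelial cells and differed in opposite directions within the same arrays. The log2 signal of Vwf minus that of Procr was -1.24 and -1.12 in Cxcr7-/- pools, against 0.053 and 0.59 in control pools. The difference between genotypes was -1.50, and every mutant array lay below every control array. The pair was picked for its opposite directions, so this difference is a description. An exact two-sided permutation test of 2 against 2 arrays cannot give a p below 0.333, the value here (adjusted p = 0.417 over 5 such differences). Vwf minus Thbd, another of the 5, was -0.56 and -1.19 in Cxcr7-/- pools, against -0.29 and 0.042 in control pools.

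Set against 22 endothelial markers measured on the same arrays, Vwf was on the lower side. The mean log2 signal of the markers was 10.34 and 10.28 in Cxcr7-/- pools, against 10.53 and 10.70 in control pools, with 15 negative and 7 positive log2 fold changes and a median of -0.11 (10 negative and 12 positive after median centring). At an unadjusted p under 0.05 there were 4 lower and 0 higher by limma, beside 4.03% and 3.93% of 11260 named genes. Both mutant pools lay below both control pools for 10 of the 22 and above for 1, beside 2152 below and 2371 above of the 11260 named genes. Vwf minus that mean was 0.35 and 0.22 in Cxcr7-/- pools, against 0.90 and 0.73 in control pools. The difference of -0.53 between genotypes was smaller in size than the -0.83 of Vwf alone, and the exact two-sided permutation p was 0.333, its lowest possible value.

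The same difference for Procr was 1.59 and 1.34 in Cxcr7-/- pools, against 0.85 and 0.14 in control pools. It was 0.97 higher in the mutant pools relative to the markers (exact two-sided permutation p = 0.333). Thbd minus the marker mean overlapped, at 0.92 and 1.42 in Cxcr7-/- pools, against 1.19 and 0.69 in control pools (exact two-sided permutation p = 0.667). No endothelial marker had a log2 fold change above that of Procr, and 3 of the 22 were below that of Vwf.

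Those 3 were the tight junction gene Cldn5 at -1.73 ± 0.26, the guidance receptor gene Robo4 at -1.24 ± 0.41 and Egfl7, which encodes a secreted endothelial matrix protein, at -1.14 ± 0.40, each on the log2 scale. Without control replicate 2 Egfl7 was at -0.50 and no longer below Vwf (-0.82), and without control replicate 1 it was at -1.77. Other endothelial genes were nearer to 0. The adhesion molecule gene Pecam1 read 204 and 247 in Cxcr7-/- pools, against 226 and 204 in control pools (0.058 ± 0.34). The endothelial cadherin gene Cdh5 read 598 and 404 in Cxcr7-/- pools, against 705 and 719 in control pools (-0.51 ± 0.31, or -0.24 without Cxcr7-/- replicate 2). The VEGF receptor gene Kdr was at -0.72 ± 0.29. None of these passed the adjusted threshold.

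Genes of Weibel-Palade bodies, the storage granules that von Willebrand factor forms, were mixed in direction. Of 10 measured genes of that list, which holds granule cargo, the machinery of granule release and the endothelin processing enzyme, 9 were kept, 5 positive and 4 negative, with a median log2 fold change of 0.08. At an unadjusted p under 0.05 there were 2 lower and 0 higher by limma, beside 4.03% and 3.93% of 11260 named genes, 7.96% together. Each gene here and in the lists below was read by its brightest probe set.

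Endothelin-1 (Edn1), a vasoconstrictor peptide that is also carried in these granules, read 280 and 460 in Cxcr7-/- pools, against 587 and 992 in control pools. Its log2 fold change was -1.04 ± 0.38, and it was -0.68 without control replicate 2. The gene of the enzyme that matures endothelin, Ece1, read 3643 and 2712 in Cxcr7-/- pools, against 4136 and 6279 in control pools, at -0.69 ± 0.29, and at -0.39 without control replicate 2.

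P-selectin (Selp), the leukocyte receptor of the granule membrane, lay on the other side. Its brightest probe set read 397 and 250 in Cxcr7-/- pools, against 239 and 136 in control pools, at 0.73 ± 0.40, and its other probe sets were below the filter. The value was 0.37 without control replicate 2 and 0.42 without Cxcr7-/- replicate 1. Angiopoietin 2 (Angpt2) read 76.2 and 165 in Cxcr7-/- pools, against 329 and 141 in control pools, with overlap (-0.82 ± 0.51), and was at -0.27 without control replicate 1 and -1.37 without control replicate 2. Neither passed the adjusted threshold.

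**Figure D3:**
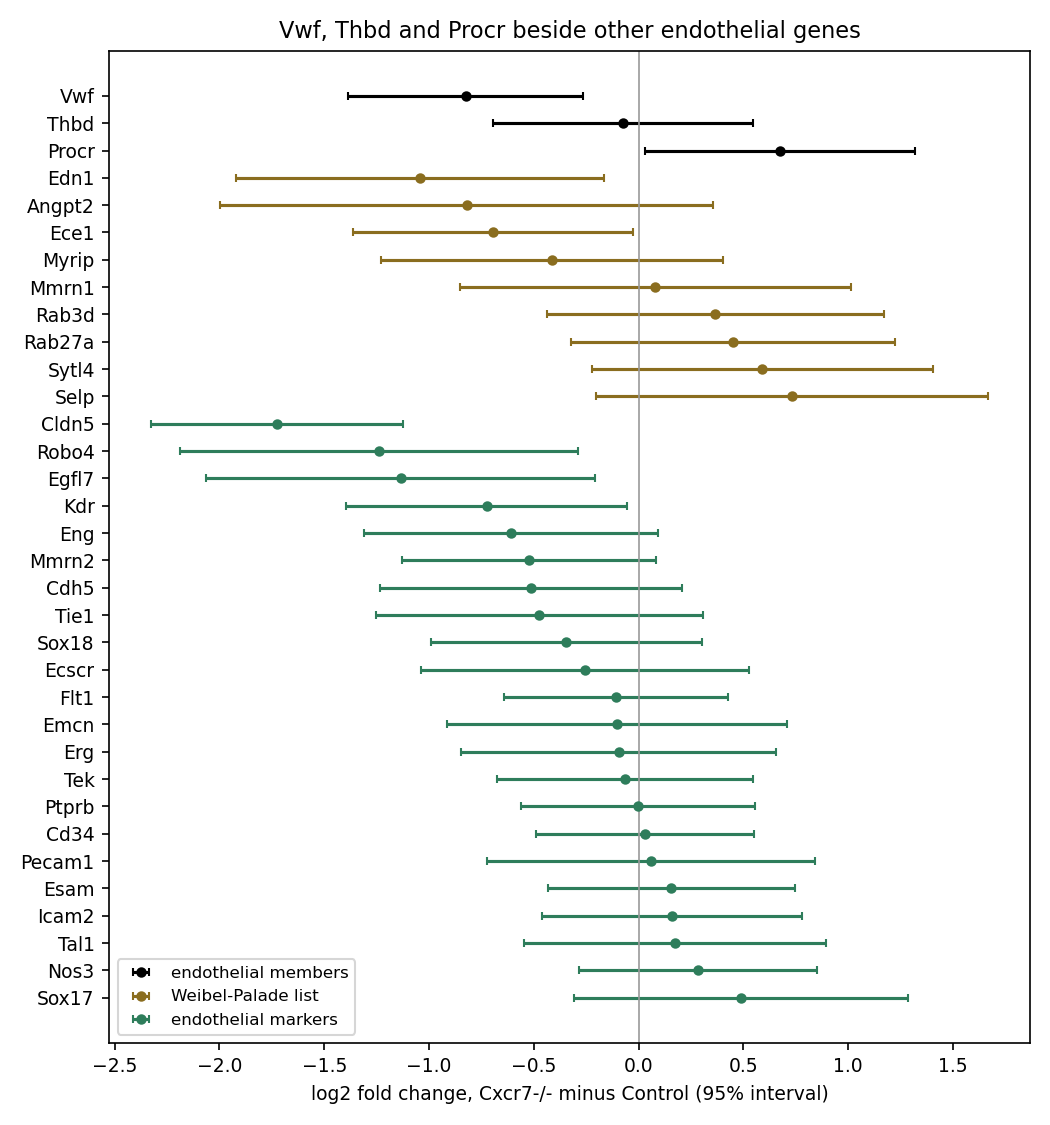
Log2 fold change, Cxcr7-/- minus Control, with its 95% interval (horizontal axis) for Vwf, Thbd and Procr (black), 9 kept genes of the Weibel-Palade list (ochre) and 22 endothelial markers (green), each group ordered by value. Vwf at -0.83 lies among the lower endothelial genes, and Procr at 0.68 lies above every endothelial marker.

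Megakaryocytes and platelets also carry Vwf. Of 9 measured platelet and megakaryocyte markers 5 were above the filter, with 2 positive and 3 negative log2 fold changes, and the dim ones were Gp5, Gp9, Clec1b and Gp6. The summed signal of the 9 was 3392 and 2646 in Cxcr7-/- pools, against 2486 and 2253 in control pools. Most of it was platelet factor 4 (Pf4), which read 2880 and 1934 in Cxcr7-/- pools, against 1629 and 1419 in control pools, the opposite direction to Vwf. The sum therefore mostly follows 1 gene. Of 14 macrophage markers 13 also had positive log2 fold changes, and the part of macrophage RNA in the Pf4 value was not tested. The 5 kept platelet and megakaryocyte markers had a median log2 fold change of -0.29. Both mutant pools lay above both control pools for 1 and below for 2, beside 2371 above and 2152 below of 11260 named genes. Among the 2 markers below was Gp1bb, a subunit of the platelet receptor for von Willebrand factor. It read 78.5 and 148 in Cxcr7-/- pools, against 158 and 278 in control pools. The integrin gene Itga2b of the platelet lineage read 181 and 253 in Cxcr7-/- pools, against 240 and 299 in control pools, with overlap.

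The genes nearest to Vwf in their pattern over the 4 arrays were Adam11, Etl4, Ugcg, Mmaa and Hdac11, in that order. Likeness was the root mean square difference of log2 signals, each probe set centred on its own mean, and ran from 0.016 for Adam11 to 0.056 for Hdac11 among 11259 genes. Adam11 and Mmaa are dim, and their values depend on the constant added before taking logs. Without it their log2 fold changes were -1.03 and -0.90, against -0.83 for Vwf. With 4 times the constant they were -0.54 and -0.51, against -0.80 for Vwf. The brighter Etl4, Ugcg and Hdac11 moved less. Likeness itself was not recomputed with another constant. With 4 arrays such closeness is a description of these pools. Each other member was scored by its brightest probe set alone, and by that reading none was near: Thbd, the closest, was at 0.45 and ranked 4606. The dimmer probe sets of Tfpi, Plat and Plau were not scored. Among these was the Tfpi probe set with both mutant pools below both control pools, as for Vwf.

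The wider pathway was read from a list of 43 other genes of coagulation, its control and fibrinolysis, of which 39 were analysed here and 27 were kept by the filter. Of the 27, 9 log2 fold changes were positive and 18 negative, with a median of -0.33 beside 0.0048 over all named genes, and the split was 12 and 15 after median centring. At an unadjusted p under 0.05 there were 3 higher and 1 lower by limma, beside 3.93% higher and 4.03% lower of all named genes, and 0 passed the adjusted threshold.

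The 3 higher genes were F13a1, Mcfd2 and Anxa2. F13a1, the catalytic subunit of the factor that cross-links fibrin, read 1063 and 1627 in Cxcr7-/- pools, against 522 and 429 in control pools (1.43 ± 0.32, adjusted p = 0.406 in limma). Macrophages also express it, and 13 of 14 macrophage markers had positive log2 fold changes, with a summed signal of 23171 and 19737 in Cxcr7-/- pools, against 15321 and 13077 in control pools. The part of macrophage RNA in the F13a1 value was not tested.

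Mcfd2, which helps to carry factors V and VIII out of the endoplasmic reticulum, read 8211 and 6412 in Cxcr7-/- pools, against 4775 and 3809 in control pools (0.76 ± 0.25). Annexin A2 (Anxa2), a surface receptor for plasminogen and tPA, read 37693 and 32264 in Cxcr7-/- pools, against 25017 and 25569 in control pools (0.46 ± 0.19), and its dimmer kept probe set was at 0.0077 ± 0.33. The gene of its partner S100a10 read 18136 and 13620 in Cxcr7-/- pools, against 11125 and 11609 in control pools (0.47 ± 0.22, or 0.26 without Cxcr7-/- replicate 1).

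Protein S (Pros1), the cofactor of activated protein C, read 2572 and 2186 in Cxcr7-/- pools, against 1696 and 1702 in control pools, with separate pools and a log2 fold change of 0.48 ± 0.25. Protein C itself (Proc), the ligand of the Procr product, was the lower gene, with 7.69 and 129 in Cxcr7-/- pools, against 354 and 149 in control pools. Its log2 fold change of -1.92 ± 0.76 rests on Cxcr7-/- replicate 1, and was -0.75 without that array and -3.09 without Cxcr7-/- replicate 2. Within each genotype Proc was higher in the pool with more hepatocyte marker signal, 16.7-fold among mutants and 2.38-fold among controls. The part of hepatocyte RNA in its value was not tested. The thrombin receptor gene F2r read 28530 and 30602 in Cxcr7-/- pools, against 33975 and 26109 in control pools by its brightest probe set (-0.011 ± 0.21), and by the other 11647 and 17228 in Cxcr7-/- pools, against 9928 and 9237 in control pools (0.56 ± 0.25, or 0.28 without Cxcr7-/- replicate 2 and 0.85 without replicate 1).

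The genes of 3 plasma proteins that liver secretes differed more between pools of the same genotype than the genotype means did. Prothrombin (F2) read 43.7 and 450 in Cxcr7-/- pools, against 807 and 141 in control pools. Plasminogen (Plg), the substrate of the Plat and Plau products, read 59.9 and 659 in Cxcr7-/- pools, against 984 and 174 in control pools. The fibrinogen gamma chain (Fgg), named here after its values were seen, read 5.96 and 3350 in Cxcr7-/- pools, against 5529 and 595 in control pools.

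In each of these 3 genes Cxcr7-/- replicate 2 and control replicate 1 were high and the other 2 arrays low, so that the genotypes overlapped. The log2 fold changes were -1.06 ± 0.99 for F2 and -0.91 ± 1.02 for Plg, and both turned positive without Cxcr7-/- replicate 1 (0.36 and 0.62) and without control replicate 1 (0.11 and 0.27). Factor X (F10) read 90.6 and 222 in Cxcr7-/- pools, against 244 and 145 in control pools (-0.34 ± 0.48). Factor VII (F7) and factor VIII (F8) were below the filter.

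The same order of pools held for 13 of the 27 kept genes of the list, beside 18.6% of all kept probe sets, and for all 6 hepatocyte markers. Albumin (Alb) read 105 and 22426 in Cxcr7-/- pools, against 39028 and 2624 in control pools, and alpha-fetoprotein (Afp) read 293 and 24006 in Cxcr7-/- pools, against 27146 and 5855 in control pools. The other 14 kept genes, a division made after the values were seen, had 9 positive and 5 negative log2 fold changes and a median of 0.22. The division used the same signals and set aside 13 genes that were all negative. It thereby moved the median upward, and no lean of the 14 genes is read from it. The 14 genes include Proc, which had the same order within each genotype but not across them. All 13 genes with that order had negative log2 fold changes, with standard errors of up to 1.94. The order puts a high and a low pool in each genotype, so the genotypes overlap by definition. That none had an unadjusted p under 0.05 in limma is therefore no separate result. The part of hepatocyte RNA in these values was not tested. Among the 11 kept member probe sets the order was seen in 1.

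**Figure D4:**
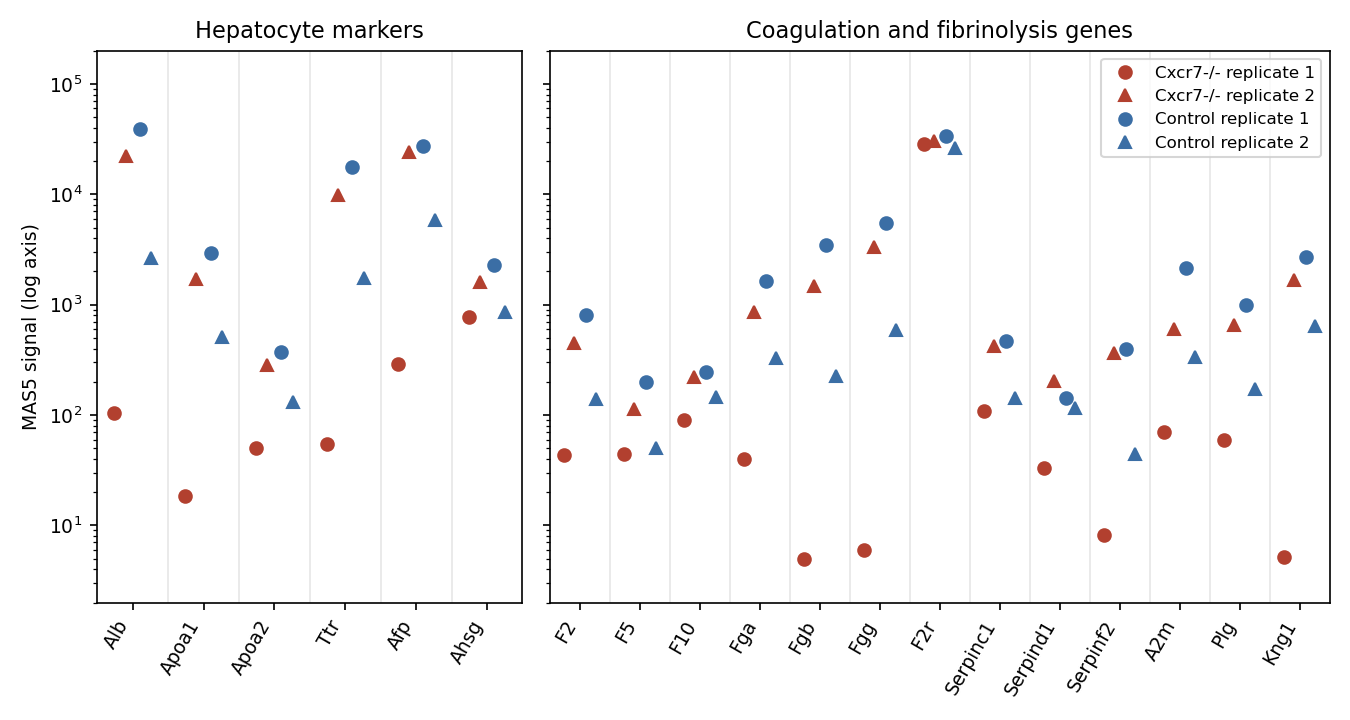
MAS5 signal (log axis) in each pool for 6 hepatocyte markers (left) and for the 13 kept genes of the wider list whose signal was higher in Cxcr7-/- replicate 2 and control replicate 1 than in the other pools (right), with Cxcr7-/- pools in red left of control pools in blue. Fgg spans 5.96 and 3350 in Cxcr7-/- pools and 5529 and 595 in control pools, and Alb 105 and 22426 against 39028 and 2624, while F2r is nearly level.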

How the data were processed

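Leaflet RNA (50 ng per pool) went through 2 rounds of amplification before hybridisation, per the labels. The deposited intensity values are linear MAS5 signals, 1 per probe set and array, made with Affymetrix Expression Console per the submitters' processing notes. For versions, detection calls and a build: not given in the sources used here. Medians were 84.5 and 92.5 in Cxcr7-/- arrays and 110 and 89.9 in control arrays, and trimmed means were 500.003 on all 4, so signals are uncentred and scaled per array. Ratios of 3' to 5' Actb signal were 15.5 and 11.7 in Cxcr7-/- arrays and 20.2 and 19.1 in control arrays, and those of Gapdh were 12.6 and 8.20 in Cxcr7-/- arrays and 12.7 and 24.2 in control arrays, highest in control replicate 2.

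Signals were taken as log2(signal + 22), where 22 is the rounded 25th percentile, and 22518 of 45037 non-control probe sets with a mean above the median were kept. The array's annotation table gave 34945 probe sets 1 symbol, 932 several and 9160 none. Symbols were updated by gene identifier to RefSeq names (34741 matched). Cxcr7-/- minus control was fitted in limma 3.58.1 (R 4.3.3; lmFit, eBayes with intensity trend, two-sided, Benjamini-Hochberg over all kept probe sets), with 2 residual and 5.85 prior degrees of freedom. The fit was tested on simulated data. The number of arrays limits precision. Each limma p-value sets the genotype difference against the spread between these pools, moderated by the spread of probe sets of similar intensity.

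The members and lists were chosen with earlier results of these data known. Named genes were all members, 10 direct partners, Selp, Edn1, Angpt2, Pecam1, Cdh5, Cldn5, Pf4, Itga2b, wider-list genes at an unadjusted p under 0.05, Ackr3, and the 5 genes nearest to Vwf. Robo4, Egfl7, Kdr, Ece1, S100a10, Fgg, Alb, Afp, Gp1bb and the named dim platelet markers were chosen after their values were seen. The 3 kept erythroid markers had a median log2 fold change of -0.35.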

Additional observations from a re-analysis of the deposited data

How the results depend on the processing

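No member probe set passed the adjusted threshold in limma under any of the 12 alternatives in which it was counted. Those at an unadjusted p under 0.05 numbered 2 with all arrays, 3 with no filter, 1 with quantile normalization, 1 without an intensity trend, 1 with the replicate block and 0 to 2 with an array left out. Vwf stayed negative (-0.92 to -0.53) and Procr positive (0.41 to 0.97) under all 13 alternatives, with the smallest size of Vwf after centring on endothelial markers. In that setting the unadjusted p from limma was 0.059 for Vwf and 0.013 for Procr. Median centring put the median of all kept probe sets at 0.12, against -0.02 without centring, and centring on endothelial markers put it at 0.28. All probe sets past the adjusted threshold numbered 0 to 673 with an array left out (673 without control replicate 1, 8 without Cxcr7-/- replicate 2), and the wider-list genes at an unadjusted p under 0.05 numbered 1 to 12, against 4 with all arrays. The replicate numbers are not tied to a litter or day, and same-numbered arrays deviated at r = -0.26 across probe sets, so the arrays were not paired. With the replicate block, Vwf was at an adjusted p of 0.611 and Procr at 0.658 in limma.

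Signs turned under other scalings for Thbd (0.065 with median centring, 0.23 centred on endothelial markers), Tfpi 1451791_at (0.11 and 0.27 in the same order), Tfpi 1452432_at (0.012 and 0.17), Plat 1458553_at (0.0095 and 0.17) and F2r 1437308_s_at (0.13 and 0.29). Itga2b was at 0.0040 centred on endothelial markers. With an array left out, signs also turned within these ranges: Thbd -0.29 to 0.15, Tfpi 1451791_at -0.33 to 0.28, Tfpi 1452432_at -0.32 to 0.064, F3 -0.18 to 0.32, Plat 1415806_at -0.025 to 0.33 and Plat 1458553_at -0.79 to 0.53. Among other genes the ranges were -0.20 to 0.18 for F2r, -2.44 to 0.62 for Plg, -2.48 to 0.36 for F2, -0.90 to 0.21 for F10, -0.11 to 0.13 for Anxa2 1437692_x_at and -0.068 to 0.18 for Pecam1. The cause was not tested. Low signals, around 22 for Plau and around the filter level of 87.4 for F3, limit what can be read from their ratios.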
